A study of Mus musculus with 10 samples.

Results

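Ribosome-bound RNA of mice in a yoked control group was compared with that of mice that self-administered saline, using the 3 pull-down libraries titled for each group, 6 of the 10 libraries of the series, and every gene with enough reads to be tested. That left 14680 of the 32531 genes counted. In translating ribosome affinity purification (TRAP), ribosomes of 1 cell class carry ribosomal protein L10a fused to EGFP, and antibodies to EGFP pull them out of the homogenised tissue together with the RNA on them. All mice carried the fusion gene under Drd1 control (line CP73), on a background of FVB/N-Swiss Webster crossed to C57BL/6 for at least 9 generations, and the tissue was the whole striatum. The saline mice could earn intravenous saline in a short-access self-administration study. A yoked animal is in general one whose deliveries are set by the responding of a partner, but what these yoked mice received, their age, and whether each library came from its own animal are not given in the labels. P-values here therefore measure only the spread between these libraries, which may be technical. Another 3 pull-downs from cocaine self-administration entered the fit to steady the estimate of spread, and 1 library of unpurified striatal RNA served as input.

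The Drd1 gene encodes the dopamine D1 receptor, which in the striatum marks the medium spiny neurons of the direct pathway. Dopamine acting on this receptor raises cyclic AMP and, through kinases and transcription factors, switches on immediate early genes such as Fos and Arc. Striatal cells also run a circadian clock, in which the activators CLOCK and BMAL1 (the product of Arntl) bind E-box elements and drive their own repressors.

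Levels are counts per 1000000 gene counts, called CPM, after TMM scaling in the pull-downs and without it in the input. Differences are log2 fold changes, yoked minus saline, with the standard error (SE). The tagged cells were checked against the markers Drd1 and Drd2. Drd1 stood at 589 to 768 CPM in the saline and 590 to 971 CPM in the yoked pull-downs, against 331 CPM in the input. Drd2, the D2 receptor gene of indirect-pathway neurons, stood at 11.6 to 61.7 CPM in the 6 pull-downs and at 319 CPM in the input. The D1 marker Chrm4 (62.4 to 100 CPM, input 36.4) and the D2 marker Penk (107 to 321 CPM, input 789) went the same way. Not all markers did. The D1 marker Zfp521 stood at 31.8 to 58.4 CPM, around its input level of 45.2 CPM. The D2 marker Gucy1a3 stood at 265 to 379 CPM, around its input level of 344 CPM. Each yoked library was deeper than each saline library: gene counts were 28408236, 12528806 and 23389565 in saline 1, 2 and 3 and 38611396, 43556996 and 45242175 in yoked 1, 2 and 3 (two-sided exact permutation p = 0.1, the smallest that 3 libraries against 3 can give). All saline libraries were run on lane 3 and all yoked libraries on lane 2, so lane, depth and group cannot be told apart. The limit that a count of 0 allows, 3 counts, came to 0.0663 to 0.239 CPM of the library total and covers counting error only.

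Some libraries stood apart. Yoked 3 lay at 43.1 on the first principal component of the 6 libraries, which held 52.7% of the variance, while the other 5 lay between -21.5 and 3.16. The median gene differed by 0.331 to 0.374 (absolute log2 difference) between yoked 3 and each other library, and by 0.113 to 0.201 between the other pairs. Yoked 3 was more than 2-fold above all 5 others in 48 of 11895 genes and more than 2-fold below them in 43. Yoked 2 held the most glial RNA, and saline 1 held by far the most pituitary hormone RNA. The median SD over genes of log2(CPM + 1) was 0.146 among saline and 0.241 among yoked libraries, and 69.8% of genes varied more among the yoked libraries. Many values below are therefore also given with single libraries, or all those of 1 number, left out.

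Sequences are shown for the clock repressor gene Ciart, which had the smallest p of the clock genes, and for Fos, the best-known activity gene, which is induced through cyclic AMP response elements. Each is the 250 bases upstream of a transcript start (RefSeq, GRCm38.p6, the assembly called mm10), read along the gene's strand. Capitals mark the canonical E-box, CACGTG, in Ciart (chr3:95882229-95882478, minus strand) and the short core of the cAMP response element, TGACG, called the short site, in Fos (chr12:85473640-85473889, plus strand).
Ciart: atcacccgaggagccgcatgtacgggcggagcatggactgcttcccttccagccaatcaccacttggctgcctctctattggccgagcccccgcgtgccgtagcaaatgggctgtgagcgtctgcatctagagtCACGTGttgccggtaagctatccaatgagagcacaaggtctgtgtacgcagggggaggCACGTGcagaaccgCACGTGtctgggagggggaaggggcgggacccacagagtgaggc
Fos: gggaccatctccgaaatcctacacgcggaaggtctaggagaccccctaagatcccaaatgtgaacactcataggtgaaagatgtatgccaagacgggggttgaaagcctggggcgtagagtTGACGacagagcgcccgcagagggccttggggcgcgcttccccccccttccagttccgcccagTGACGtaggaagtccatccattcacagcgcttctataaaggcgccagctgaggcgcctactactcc
Both strands were searched in 32851 promoter windows of this length. An E-box was found in 6.02% of windows, and 3 or more, as upstream of Ciart, in 0.0609% (20 windows). The short site was found in 17.8% of windows and 2 or more, as upstream of Fos, in 3.9%. The short site is contained in the palindromic element TGACGTCA, so a palindrome counts as a match on each strand. E-boxes were present upstream of 5 of the 18 clock genes with a window and short sites upstream of 6 of them. Of the 22 immediate early genes with a window, 5 held an E-box and 15 a short site. These counts are per gene, some with several windows, while the shares above are per window. A match describes the letters only.

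No gene passed the test of yoked against saline. The quasi-likelihood F test of edgeR, adjusted by Benjamini-Hochberg, called 0 of 14680 genes (0%) at an adjusted p under 0.05, and the smallest adjusted p was 0.999. An unadjusted p under 0.05 was reached by 270 genes (1.84%), of which 170 (1.16%) stood higher and 100 (0.681%) lower in yoked. When no gene differs, that threshold is expected to pass a share of about 0.05, so 1.84% is no excess. DESeq2 and limma-voom also called 0 genes, with 303 and 226 at an unadjusted p under 0.05. The median log2 fold change over all genes was 0.03, and 55.0% of genes lay above 0. Of 11888 genes averaging 50 counts or more over the 6 libraries, 755 (6.35%) had groups that did not overlap: the 3 yoked libraries lay wholly above the 3 saline libraries in 359 (3.02%) and wholly below them in 396 (3.33%). Were the 6 values of a gene in random order, its groups would separate with a probability of 0.1, so 6.35% is no excess either. Libraries of the same number deviated together, and with the replicate number as a block 1 gene was called, Gh, described below. Without yoked 3, 1 gene was called, the clone AK155692, which is named for that reason after its values were seen. It stood at 59.2, 77.5 and 74.6 CPM in saline and at 141, 152 and 65.4 CPM in yoked libraries, so yoked 3 lay within the saline range. Its log2 fold change was 1.06 without yoked 3 (edgeR adjusted p = 0.0128, Benjamini-Hochberg) and 0.76 ± 0.24 (SE) with it.

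**Figure D1:**
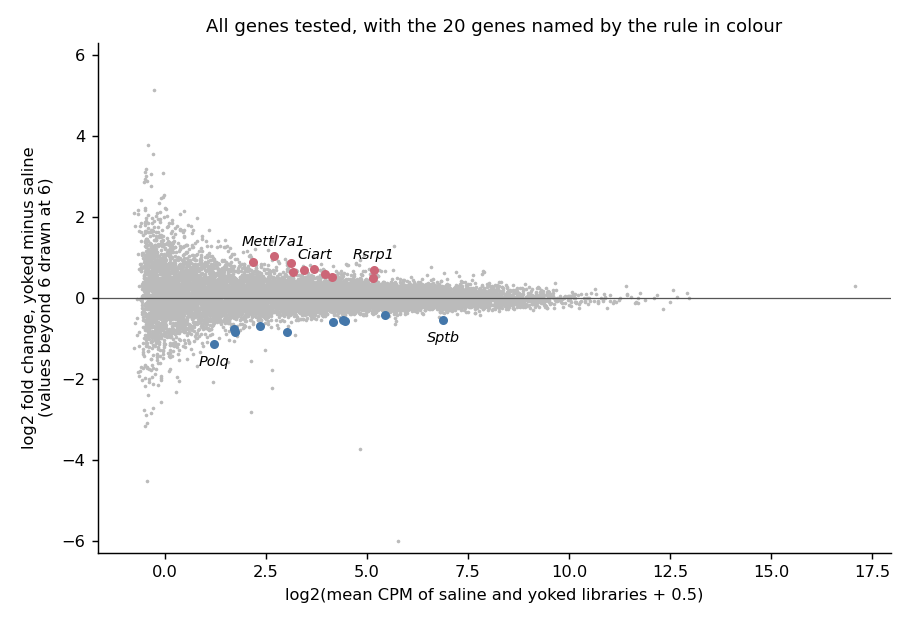
Log2 fold change (yoked minus saline) against log2 of the mean CPM of the 6 libraries plus 0.5, 1 point per gene tested (14680), with the 10 higher (red) and 10 lower (blue) genes named by the rule in colour and values beyond 6 drawn at 6. The named genes lie at the edge of the cloud of all genes, and none passed the test.

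The genes named next are the 10 higher and the 10 lower with the smallest unadjusted p among the separated genes that average 50 counts or more. That the groups do not overlap in these 20 genes is therefore part of how they were chosen, and each lay past the unadjusted threshold but not the adjusted one. A direction that holds when libraries are left out largely follows from that choice too, so the ranges over settings below show size only. Ciart (chr3:95878500-95882257), a repressor of the CLOCK and BMAL1 pair, stood at 10.6, 8.59 and 9.40 CPM in saline and at 15.9, 16.5 and 14.2 CPM in yoked libraries. The yoked values were close together and all above the highest saline value. Its log2 fold change was 0.70 ± 0.19 (SE) and it ran from 0.58 to 0.83 over 24 alternative settings. In the 3 cocaine libraries Ciart stood at 20.2, 13.1 and 15.9 CPM.

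Acss2, Dbt and Idh1, of the 10 higher genes, encode enzymes of intermediary metabolism, which was no list of its own here. They are grouped only for description, and the share of such enzymes among all genes tested was not counted. Acss2 (chr2:155518043-155562743), which makes acetyl-CoA from acetate in the cytosol and nucleus, stood at 8.51, 7.58 and 7.87 CPM in saline and at 11.7, 11.9 and 14.8 CPM in yoked libraries, a log2 fold change of 0.68 ± 0.18. Dbt (chr3:116513070-116549981), a subunit of the mitochondrial complex that breaks down branched-chain keto acids, stood at 12.3, 13.5 and 10.7 CPM against 17.1, 18.8 and 18.6 CPM, a difference of 0.59 ± 0.16. Idh1, the cytosolic isocitrate dehydrogenase, stood at 13.5, 16.1 and 12.7 against 17.6, 22.5 and 20.1 CPM, a difference of 0.51 ± 0.17. In these 3 enzymes all yoked libraries contributed, and the log2 fold changes stayed between 0.41 and 0.74 over the 24 settings. They were 0.40, 0.29 and 0.07 for cocaine against the same saline libraries.

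Some of the other higher genes leaned on single libraries. Mettl7a1, a lipid-droplet and endoplasmic reticulum methyltransferase-like gene, stood at 4.87, 3.25 and 3.61 CPM in saline and at 5.96, 5.75 and 12.3 CPM in yoked libraries. Cutc, named for copper handling, showed the same pattern, at 5.38, 6.96 and 5.26 against 7.24, 8.45 and 15.9 CPM. In both, yoked 3 was far above the other yoked libraries, and without it their log2 fold changes went from 1.02 to 0.57 and from 0.85 to 0.43. Rsrp1, an arginine- and serine-rich protein gene, stood at 24.1 to 29.9 against 31.0, 48.2 and 52.6 CPM (0.70 ± 0.21). The zinc finger gene Zfp566 stood at 2.61 to 3.10 against 5.30, 3.67 and 6.79 CPM (0.89 ± 0.27). Fam117a stood at 6.52 to 7.19 against 9.81, 11.3 and 10.1 CPM (0.63 ± 0.21), and Mcm3ap, which encodes a scaffold of messenger RNA export, at 27.9 to 30.5 against 33.3, 49.8 and 38.8 CPM (0.49 ± 0.16, and 0.31 without yoked 2).

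The most abundant gene of the 10 lower ones was Sptb. Sptb (chr12:76580488-76710547), which encodes a beta spectrin of the membrane skeleton, stood at 154, 122 and 146 CPM in saline and at 109, 109 and 69.3 CPM in yoked libraries, a log2 fold change of -0.55 ± 0.19. Kcng1, a modifying subunit of voltage-gated potassium channels, stood at 27.7, 21.4 and 28.1 against 20.3, 17.7 and 14.0 CPM (-0.58 ± 0.19). Nphp4 (chr4:152476706-152563184), a protein of the ciliary base, stood at 9.98, 8.66 and 10.8 against 6.96, 6.37 and 3.14 CPM (-0.84 ± 0.26). In each of these 3 genes yoked 3 was the lowest library, and without it the log2 fold changes were -0.37, -0.45 and -0.56. Zfp521, a transcription factor of direct-pathway neurons, stood at 46.6, 43.9 and 58.4 against 40.7, 38.1 and 31.8 CPM (-0.43 ± 0.15), and -0.21 without the libraries numbered 3. It was the only one of the 12 D1 markers whose groups did not overlap, where 6.69% of all genes tested did not.

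Prima1, which anchors acetylcholinesterase in the membrane, stood at 22.2, 18.7 and 21.9 against 17.5, 13.9 and 10.3 CPM (-0.59 ± 0.21). Acetylcholinesterase itself, Ache, stood at 12, 17.8 and 9.18 against 10.8, 10.4 and 6.28 CPM, lower in yoked in all 3 same-numbered pairs but with overlapping groups (-0.50 ± 0.26). Its value was -0.21 without saline 2, -0.28 without yoked 3 and -0.0024 with both left out. Ache is set beside Prima1 as its binding partner, and neither passed the test. Cnpy3, a chaperone of Toll-like receptors, stood at 22.5 to 27.1 against 15.4 to 19.5 CPM (-0.56 ± 0.19). Rnf207 stood at 3.0 to 4.02 against 2.04, 2.08 and 2.05 CPM (-0.77 ± 0.27). Pdzd7, Cd164l2 and Polq, a DNA repair polymerase, had mean levels of 5.66, 3.61 and 2.54 CPM in saline and of 3.49, 2.02 and 1.15 CPM in yoked libraries. These last 4 genes are the lowest counted of the lower set, where counting error weighs most.

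**Figure D2:**
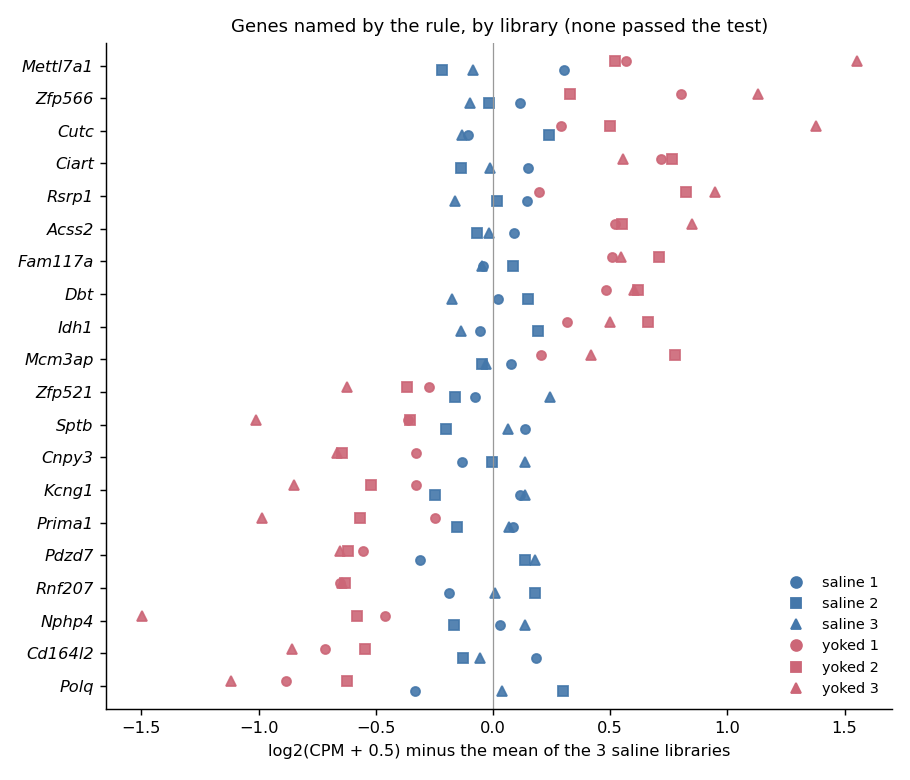
Log2(CPM + 0.5) of each library minus the mean of the 3 saline libraries, for the 20 genes named by the rule (blue saline, red yoked, shapes for the library number). Yoked 3 (red triangles) is the outermost yoked library for Mettl7a1, Cutc, Nphp4 and Sptb, while the yoked libraries lie close together for Ciart and Dbt.

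Immediate early genes did not pass, and the yoked libraries disagreed among themselves. Of 29 tested, 18 stood higher and 11 lower, 0 were called, and the median log2 fold change was 0.14 beside 0.03 for all genes. Fos, a subunit of the transcription factor AP-1, stood at 3.21, 0.851 and 3.31 CPM in saline and at 2.57, 11 and 4.04 CPM in yoked libraries (1.21 ± 0.66). Yoked 2 was the highest library by far, and the log2 fold change of Fos was 0.37 without it and 0.018 without the 3 libraries numbered 2. Arc, a regulator of synaptic receptor traffic, stood at 48.5, 42.2 and 48.5 against 36.6, 106 and 29.3 CPM (0.30 ± 0.42). Nr4a1, an orphan nuclear receptor, stood at 46.4, 47.7 and 67.2 against 39.5, 143 and 33.8 CPM (0.42 ± 0.53). In both, yoked 2 lay above all saline libraries and yoked 1 and yoked 3 below them, so the mean of the group described none of its libraries. Egr1 stood at 773, 749 and 704 against 679, 1087 and 479 CPM (0.01 ± 0.22) and showed the same order. Npas4, a factor induced by neuronal calcium entry, stood at 13.7, 10.5 and 9.22 against 5.30, 15.6 and 1.94 CPM (-0.56 ± 0.71), a value that was -1.64 without yoked 2 and -0.099 without yoked 3.

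Of the 27 immediate early genes that average 50 counts or more, yoked 2 was the highest of the 6 libraries in 17 (63.0%) and yoked 3 the lowest in 14 (51.9%). Over all genes of that abundance the shares were 17.4% and 30.7%. Without yoked 2 the list median was -0.13, and Arc, Nr4a1 and Junb were at -0.50, -0.56 and -0.12. Without all the libraries numbered 2 the list median was -0.11. Fosb, whose stable products build up with repeated stimulation, stood at 24.1 to 25.1 CPM in saline and at 27.5, 28.9 and 17.2 CPM in yoked libraries (-0.01 ± 0.21). Jun was the only member of this list above its same-numbered saline library in all 3 pairs at a mean count of at least 50, at 6.68, 9.44 and 7.66 against 8.79, 13.4 and 9.16 CPM (0.41 ± 0.22, and 0.18 without yoked 2). Jund, another AP-1 subunit, stood at 61.5, 62.0 and 58.3 against 57.8, 58.3 and 34.6 CPM, the only member whose groups did not overlap (-0.27 ± 0.19). Over all genes tested 6.69% did not overlap.

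**Figure D3:**
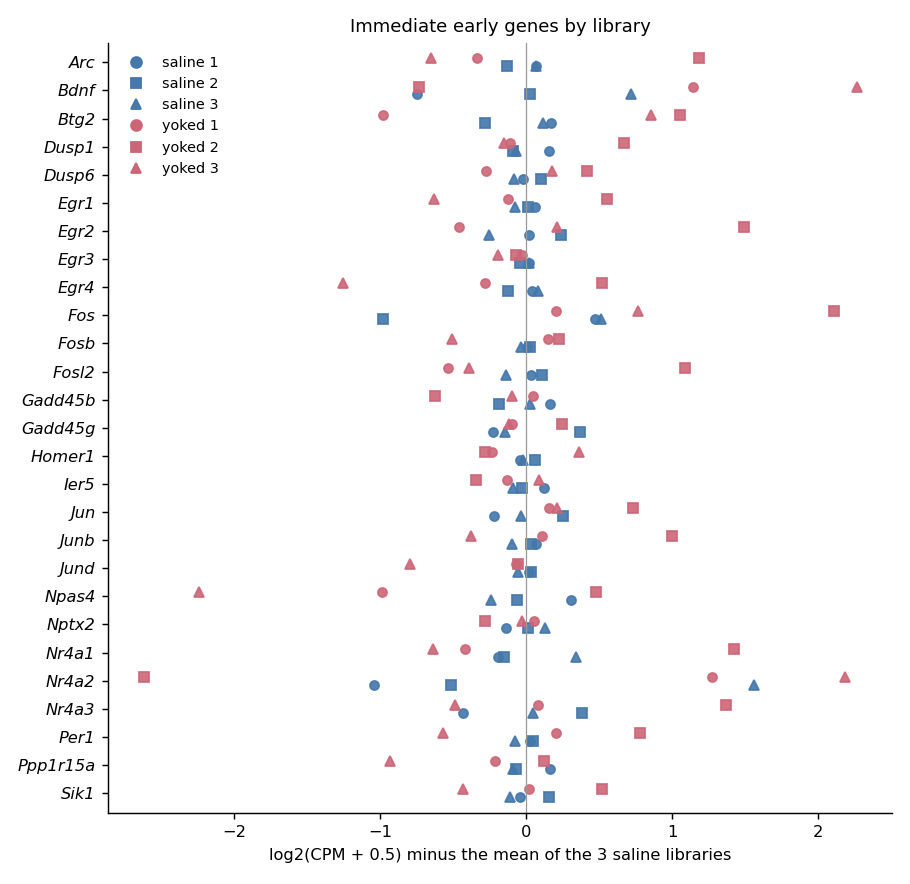
Log2(CPM + 0.5) of each library minus the mean of the 3 saline libraries, for the 27 immediate early genes that average 50 counts or more (blue saline, red yoked, shapes for the library number). Yoked 2 (red squares) is the highest library for 17 genes and yoked 3 (red triangles) the lowest for 14.

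Yoked 2 was also the pull-down with the most glial RNA among the 6. All 16 astrocyte markers, all 14 oligodendrocyte markers and all 8 oligodendrocyte precursor markers stood higher in yoked by fitted fold change, with medians of 0.61, 0.51 and 0.64, and 11 of 14 microglial markers did, with a median of 0.58. None of these genes was called, and of the 52 only C1qc, at 0.087 to 1.25 CPM, had groups that did not overlap. Over all genes tested that share was 6.69%. The astrocyte score, the mean log2(CPM + 0.5) of its members, was 3.47, 4.07 and 2.83 in saline and 3.82, 4.75 and 2.80 in yoked libraries. The oligodendrocyte score was 3.71, 4.60 and 2.84 against 4.19, 5.08 and 3.02. In both groups library 2 was highest and library 3 lowest, and the spread within a group was wider than the difference between groups. Within same-numbered pairs the oligodendrocyte score was higher in yoked in 3 of 3 and the astrocyte score in 2 of 3. Higher in all 3 pairs were 6 of 14 oligodendrocyte, 4 of 16 astrocyte, 4 of 14 microglial and 1 of 8 precursor markers, beside 1761 of all 14680 genes tested. The astrocyte glutamate transporter gene Slc1a2 stood at 155, 277 and 115 against 208, 535 and 113 CPM, and the myelin gene Mobp at 19.1, 30.7 and 8.35 against 30.6, 68.7 and 10.6 CPM. Their input levels were 1770 and 350 CPM. Mobp was higher in all 3 pairs. Its unadjusted edgeR p was 0.22 without and 0.0059 with the replicate block, where the adjusted p was 0.998 (Benjamini-Hochberg). Without yoked 2 the medians were -0.14 for astrocytes, -0.23 for oligodendrocytes, -0.62 for precursors and 0.12 for microglia, but that keeps saline 2, the saline library with the most glial RNA. Without all 3 libraries numbered 2 they were 0.21, 0.42, -0.15 and 0.30 in the same order. The part of glial RNA in the activity gene values of yoked 2 was not tested. In bulk RNA, fewer or more cells of a type cannot be told apart from less or more RNA per cell.

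**Figure D4:**
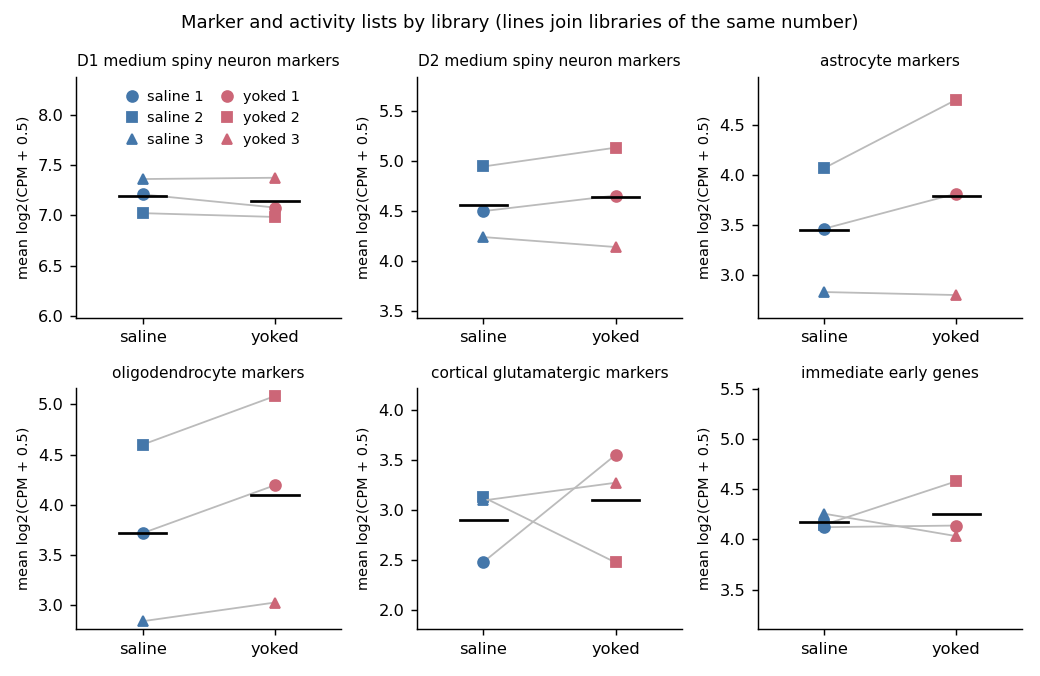
Mean log2(CPM + 0.5) of the members of 6 gene lists in each of the 6 libraries, with lines joining libraries of the same number and black bars at the group means. Astrocyte and oligodendrocyte scores are ordered by library number in both groups, from 2 at the top to 3 at the bottom, and yoked 2 alone is high for immediate early genes.

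Genes of the tagged neurons themselves differed little. Tac1, the substance P precursor, stood at 356, 253 and 423 CPM in saline and at 297, 248 and 580 CPM in yoked libraries (0.12 ± 0.30). Pdyn, the dynorphin precursor, stood at 124, 89.2 and 162 against 116, 102 and 154 CPM (-0.01 ± 0.20). Drd1 had a log2 fold change of 0.12 ± 0.18 and the muscarinic receptor gene Chrm4 one of -0.26 ± 0.21, which was -0.12 without saline 3. Of 12 D1 markers 6 stood higher and 6 lower (median 0.01). Yoked 3 was the highest library for 7 of them, among them Drd1, Tac1 and the transporter gene Slc35d3 at 119 CPM against 49.3 to 68.4 CPM elsewhere. Without yoked 3 the log2 fold changes of Drd1 and Tac1 were -0.14 and -0.34, so their direction rested on that library.

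Markers shared by direct- and indirect-pathway neurons stood lower in 16 of 22 cases (median -0.11), 9 of them lower in all 3 same-numbered pairs, where 10.6% of all genes were. Dlx6, a homeobox factor of GABA neurons, stood at 23.4, 26.8 and 30.4 against 23.2, 22.5 and 21.6 CPM, with groups just separated (-0.26 ± 0.15, and -0.16 without saline 3). Ngef, an exchange factor in ephrin signalling, stood at 570, 520 and 516 against 500, 494 and 390 CPM (-0.21 ± 0.13, and -0.11 without yoked 3). Foxp1, a transcription factor of medium spiny neurons, was the third of the 22 shared markers whose groups did not overlap, where 6.69% of all genes tested did not. Ppp1r1b, which encodes the dopamine-regulated phosphatase inhibitor DARPP-32, stood at 3637, 3389 and 2980 against 3582, 3293 and 2260 CPM (-0.13 ± 0.17). These differences were small beside their errors, 0 of 22 were called, and yoked 3 was the lowest library for 12 of the 22. The list median was -0.04 without the libraries numbered 3.

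Penk, the enkephalin precursor of indirect-pathway neurons, stood at 163, 202 and 107 CPM in saline and at 200, 321 and 179 CPM in yoked libraries, higher in all 3 same-numbered pairs (0.57 ± 0.23, past the unadjusted threshold only). With the replicate block its edgeR p was 0.0033 unadjusted and 0.998 adjusted (Benjamini-Hochberg). Penk stood at 789 CPM in the input and at 195, 185 and 166 CPM in cocaine libraries. Drd2 (27.6, 61.7 and 16.1 against 32.7, 58.9 and 11.6 CPM) and the adenosine receptor gene Adora2a (30.7, 54.8 and 13.3 against 32.0, 75.4 and 13.3 CPM), of the same neurons, followed the library number and not the group. Penk was at 0.26 and the median of the 12 D2 markers went from 0.19 to -0.17 without yoked 2. Without all the libraries numbered 2 these were 0.48 and 0.02. The glial scores of these libraries, given above, followed the library number too, and how far RNA of untagged cells bears on Penk was not tested. Sst, the somatostatin gene of a class of interneurons, stood at 7.71, 12.5 and 10.4 against 15.0, 15.0 and 12.9 CPM (0.49 ± 0.23, past the unadjusted threshold only, and 0.33 without saline 1). Its yoked values lay close together and above all saline values, as those of no other interneuron marker did among 15. Groups did not overlap in 6.69% of all genes tested. The cholinergic genes Slc18a3 and Lhx8, named after their values were seen, were high in saline 2 alone, at 23.1 and 15.3 CPM against at most 5.0 and 2.93 CPM in the other 5 libraries. Slc5a7 and Chat, also cholinergic and named likewise, were highest in saline 2, at 27.8 and 12.1 CPM. They were next highest in yoked 2, at 11.2 and 7.67 CPM, and so followed the library number.

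Clock genes held 1 member on each side at an unadjusted p under 0.05. Arntl (chr7:113178471-113314126), the activator gene, stood at 38.9, 35 and 32.4 CPM in saline and at 27.9, 26.2 and 25.4 CPM in yoked libraries, a log2 fold change of -0.42 ± 0.17, past the unadjusted threshold only. The groups did not overlap, and over the 24 settings its value ran from -0.48 to -0.34. Npas2, which can stand in for CLOCK, was also lower without overlap, at 257, 241 and 269 against 232, 237 and 160 CPM (-0.29 ± 0.16). Nr1d2, a nuclear receptor that represses Arntl, was higher without overlap, at 105, 112 and 102 against 114, 120 and 149 CPM (0.27 ± 0.14). In both, yoked 3 lay farthest from the saline libraries. With Ciart, 4 of 21 clock genes were separated between the groups, where 6.69% of all genes tested were. The other clock genes overlapped, among them Dbp (25.0, 25.4 and 19.0 against 27.6, 26.6 and 14.7 CPM), Nr1d1 (-0.05 ± 0.20) and Per2 (0.37 ± 0.24). In cocaine libraries Arntl stood at 29.7, 28.8 and 19.8 CPM. Of 21 clock genes 12 stood higher and 9 lower (median 0.07).

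Receptor and channel genes had medians near that of all genes. Of 38 glutamate receptor and postsynaptic genes 15 stood higher and 23 lower (median -0.02). Grin3a, an NMDA receptor subunit that lowers calcium flow, was the only one separated, at 2.70, 3.25 and 3.70 against 4.76, 4.52 and 6.81 CPM (0.74 ± 0.26, past the unadjusted threshold only). It stood at 15.3 CPM in the input. Ion channel genes had a median of -0.03, with Kcnh3 at 72.4, 63.2 and 72.7 against 61.6, 62.7 and 38.1 CPM (-0.36 ± 0.21, and -0.16 without yoked 3). Pde7b, a cyclic AMP phosphodiesterase, was the only one of 35 dopamine and cyclic AMP signalling genes without overlap, at 882, 856 and 845 against 814, 742 and 629 CPM (-0.24 ± 0.13, and -0.15 without yoked 3). For this list and that of Grin3a, the share to set beside is 6.69% of all genes tested, so neither count is an excess. GABA signalling genes had a median of 0.06, presynaptic vesicle genes -0.01, actin and spine regulators 0.01 and chromatin regulators -0.03. Fkbp5, a glucocorticoid-induced chaperone, stood at 42.8, 39.9 and 39.7 against 39.2, 36.8 and 28.7 CPM (-0.23 ± 0.15, and -0.10 without yoked 3), while the list of glucocorticoid-responsive genes had 12 of 18 higher (median 0.08).

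Genes of energy supply and protein turnover stood mostly higher. Of 76 nuclear-encoded oxidative phosphorylation genes 64 stood higher (median 0.16), of 34 glycolysis and citrate cycle enzymes 30 (0.10), of 37 proteasome subunits 32 (0.11) and of 31 chaperones 24 (0.12), beside 55.0% of all genes, and 0 were called. Yoked 3 was the highest library for 50 of 74, 13 of 32, 20 of 35 and 24 of 30 of these genes averaging 50 counts or more, and for 36.1% of all genes. Ndufb4, a complex I subunit, stood at 12, 12.7 and 9.87 against 12.5, 11.1 and 31.3 CPM (0.67 ± 0.32), and Dlat, of the pyruvate dehydrogenase complex, at 164, 174 and 162 against 173, 160 and 295 CPM (0.33 ± 0.19). Yoked 3 was far above the other libraries in both, and without it they were at 0.04 and 0.00065. Without yoked 3 the oxidative phosphorylation median was 0.03, and without the 3 libraries numbered 3 it was -0.05. The chaperone median was -0.020 and the proteasome median 0.043 without yoked 3, and the glycolysis and citrate cycle median was 0.038 without yoked 2. Mrpl15, a mitochondrial ribosomal protein, was separated between the groups, at 24.8, 23.6 and 18.6 against 27.7, 24.9 and 34.6 CPM (0.38 ± 0.17, past the unadjusted threshold only), and at 0.24 without yoked 3 and 0.12 without the libraries numbered 3. Of the 75 genes of its list 4 were separated higher and 1 lower, near the 6.69% of all genes tested. Cytosolic and mitochondrial ribosomal protein genes had medians of 0.06 and 0.07, with 52 of 81 and 54 of 75 higher, and of 0.010 and 0.0064 without saline 3. The same medians were 0.059 and -0.025 without yoked 3, and -0.024 and -0.068 without the libraries numbered 3. Copies of ribosomal protein genes may share reads.

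**Figure D5:**
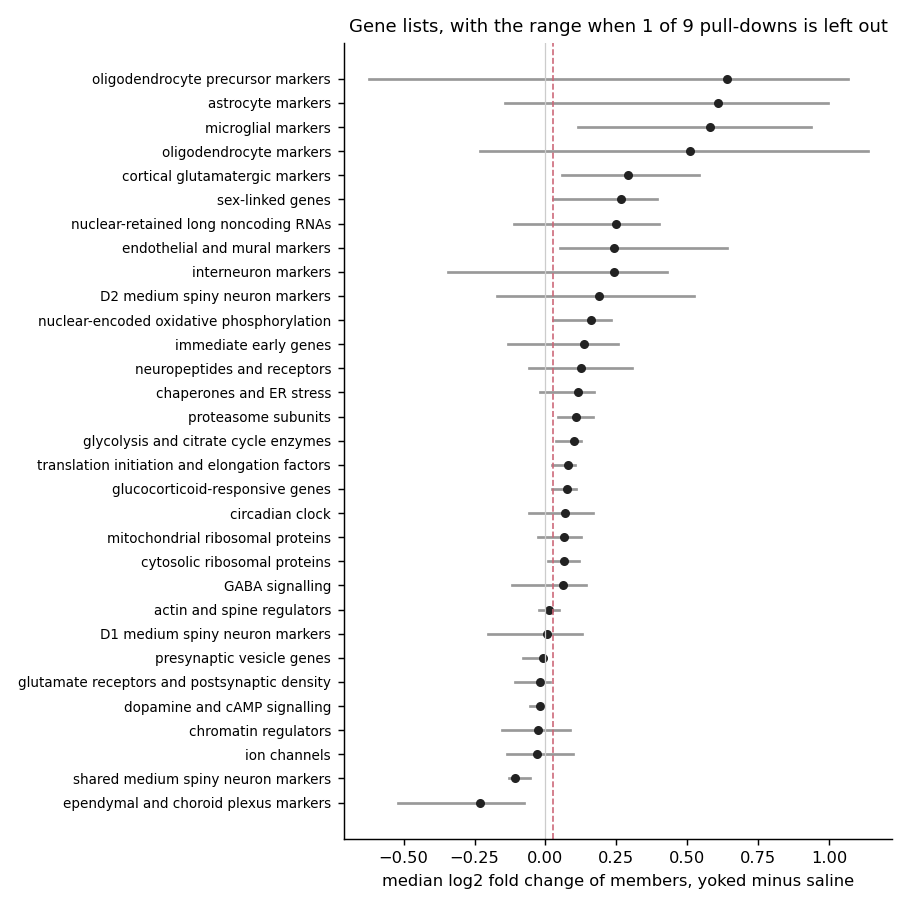
Median log2 fold change (yoked minus saline) of the tested members of 31 gene lists (points), with the range of that median when each of the 9 pull-downs is left out in turn (bars) and the median of all genes tested, 0.03 (dashed line). The bars of the astrocyte, oligodendrocyte, precursor, D2 and immediate early gene lists, among others, cross 0.

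Fold changes did not follow gene size. The Spearman correlation of log2 fold change with genomic span was -0.0016 across 13937 genes, which share the same libraries and are not replicates. The median log2 fold change was 0.02 for the 1394 genes of shortest span and 0.0012 for the 1394 of longest span. Single libraries did run with span, from -0.17 in yoked 1 and -0.11 in saline 1 to 0.11 in yoked 2 and 0.14 in saline 3.

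Some differences came mostly from 1 saline library. Gh, growth hormone, stood at 322, 1.08 and 1.13 CPM in saline 1, 2 and 3, at 0.255 CPM in yoked 1 and at 0 counts in yoked 2 and 3, and at 2356 CPM in the input. The groups did not overlap, and saline 2 and 3 also lay above the yoked libraries, but saline 1 held nearly all of these reads. Cocaine 1, 2 and 3 stood at 3.22, 0.0306 and 0.0326 CPM, so the library numbered 1 was the highest in each group. No fold change is given, since with 2 yoked libraries at 0 a fitted value depends on the prior count. Prl, prolactin, stood at 22.4 CPM in saline 1 and at 0 to 0.087 CPM in the other 5 libraries, and Pomc at 16.9 CPM against 0.439 to 2.04 CPM. With the replicate block Gh had an adjusted p of 7.71e-10 (edgeR, Benjamini-Hochberg), the 1 call of that fit, and 0.999 without the block. Without saline 1 the fit with no block called 0 genes, and the block was not run without it. The origin of pituitary hormone RNA in striatal libraries was not tested. Ttr, the main secreted protein of the choroid plexus, stood at 150 CPM in saline 3 and at 0.392 to 10.6 CPM in the other 5 libraries (-3.75 ± 2.09). The nuclear RNA Malat1 was at 38014 CPM in the input, at 169 to 188 CPM in saline and at 122, 385 and 185 CPM in yoked libraries, so yoked 2 again stood highest. Rn45s, ribosomal RNA, took 10.5%, 12.8% and 14.3% of gene counts in saline and 14.7%, 15.2% and 15.1% in yoked libraries (two-sided exact permutation p = 0.1, the smallest possible). Eif2s3y, a Y-linked initiation factor subunit, stood at 9.58, 7.27 and 7.13 against 11.6, 10.7 and 26.5 CPM (1.02 ± 0.30, past the unadjusted threshold only). The other Y-linked genes Ddx3y, Uty and Kdm5d had log2 fold changes of 0.37, 0.33 and -0.01, and without yoked 3 Eif2s3y was at 0.47.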

How the data were processed

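Per the labels' protocols, polysomes tagged with EGFP were purified from the dissected striatum and their RNA was extracted. The deposited files hold whole-number counts of reads per gene symbol, and the submitters' processing notes name STAR 2.0.0e, HTSeq and the mm10 build. For the annotation, strand setting, counting mode and HTSeq version, the answer is not given in the sources used here, so reads of overlapping or antisense genes cannot be told apart. Library sizes and tests leave out the 6 rows of each file that name no gene.

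Counts of the 9 pull-downs were fitted with edgeR 4.0.16 in R 4.3.3 (filterByExpr, TMM, robust quasi-likelihood F test, group as the only term), and p-values were adjusted over all 14680 genes tested. The common biological coefficient of variation was 23.7%. The SE was taken from the F value, as the absolute log2 fold change over its square root. Fold changes of genes with 0 counts depend on edgeR's prior count. Simulated counts were used to test the fit. DESeq2 1.42.0, limma 3.58.1 (voom), other scalings, filters, thinning to the shallowest pull-down, a replicate block and each library left out were alternatives, and 4 more were chosen after the data were seen. Pairs of libraries in a group differed beyond counting noise (chi-square over its degrees of freedom 15.0 to 171), so none is 1 library deposited under 2 names; this does not show separate animals.

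Replicate numbers pair the libraries by the rule used: deviations from the group means correlated at 0.13, 0.25 and 0.26 for same-numbered saline and yoked libraries and at -0.26 to 0.02 for the others (11895 genes). Deviations from a group mean sum to 0, so the lower values of the others are partly forced. Errors and p-values are from the fit without pairs unless the block is named. With the block 368 genes had an unadjusted p under 0.05, against 270 without it. Named were the 10 higher and 10 lower genes of smallest unadjusted p among separated genes averaging 50 counts or more, without sex-linked and unnamed genes, the 2 members of smallest p in each of 33 lists, and a fixed set of marker and activity genes. Of the 33 lists 31 had at least 3 tested members. Members of the other lists, and genes said to be chosen after their values were seen, fall outside that rule, as do list members given as the ones that did not overlap. The members and lists were chosen with earlier results of these data known, so no list was tested. Genomic spans and coordinates are RefSeq's on GRCm38.p6, matched by symbol for 94.9% of genes tested.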

Additional observations from a re-analysis of the deposited data

How the results depend on the processing

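The count of genes called was 0 under the other alternatives run and 1 under 5: Gh with the replicate block, with the block and thinned counts and with the block in the 6 libraries alone, and AK155692 without yoked 3 (1.06) and with yoked 3 and saline 2 left out together (1.13). Gh stood at 0 in 2 yoked libraries and mostly in saline 1, so its fitted fold changes are no measure of size and are not given. Leaving out 1 library gave 0 to 1 calls. The block changed no other call. Of 93 named genes, 72 kept their direction under all 24 alternatives, 4 of them chosen after the data were seen, and 21 reversed at least once. Many named genes were chosen for a small p in these data, and several alternatives reuse the same 6 libraries. A kept direction therefore largely follows from the choice, and no share for other genes was counted. Some of the reversed values lay near 0 in the main fit, such as Pdyn at -0.01 and Egr1 at 0.01. Others were large, such as Ttr at -3.75, Olig1 at 0.83, Gpr17 at 0.79 and Ndufb4 at 0.67. Limma-voom gave Gpr17 -0.065 and Egr1 -0.068. Egr1 was also at -0.024 scaled by library totals, -0.0021 without Rn45s, -0.052 with the replicate block, -0.056 with the block and thinned counts and -0.069 with the block in 6 libraries. Fosb was at 0.0022 without a filter, 0.043 with thinned counts and 0.020 with the block and thinned counts, where Esam was at -0.023. Pdyn was at 0.00065 with the replicate block and 0.0068 with the block in 6 libraries, where Gpr17 was at -0.019. Without the libraries numbered 2, values were -0.51 for Gpr17, 0.011 for Drd2, -0.11 for Junb, -0.56 for Arc, -0.35 for Egr1, -0.63 for Nr4a1 and -0.19 for Malat1. Without the libraries numbered 3, values were -0.064 for Ndufb4, -0.058 for Rpl39, -0.022 for Dlat, 1.16 for Ttr, 0.11 for Cux2, -0.042 for Drd1, -0.17 for Tac1, 0.023 for Pdyn, 0.054 for Drd2 and 0.18 for Fosb. Without yoked 3 and saline 2, they were 1.04 for Vtn, -0.23 for Drd1, -0.52 for Tac1, 1.06 for Drd2, 0.21 for Fosb and 0.055 for Ppp1r1b. Leaving out 1 library at a time moved Olig1 from -0.47 to 1.35, Gpr17 from -1.15 to 1.42, Esam from -0.035 to 0.15, Vtn from -0.96 to 0.51, Ttr from -6.85 to 0.60, Drd1 from -0.14 to 0.24, Tac1 from -0.34 to 0.34, Pdyn from -0.20 to 0.22, Drd2 from -0.65 to 0.65 and Adora2a from -0.53 to 0.87. Likewise Fosb ran from -0.15 to 0.19, Junb from -0.12 to 0.64, Arc from -0.50 to 0.62, Egr1 from -0.36 to 0.25, Nr4a1 from -0.56 to 0.76, Ppp1r1b from -0.26 to 0.044 and Malat1 from -0.23 to 0.68. The cause was not tested. Genes at an unadjusted p under 0.05 numbered 183 to 794 over the settings. With 3 libraries a group, the exact permutation test cannot go below 0.1, and saline 2, the shallowest library, sets the precision for genes of low count.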
